A study of Mus musculus with 8 samples.

Results

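*Bdnf* (ENSMUSG00000048482), the gene for brain-derived neurotrophic factor, lies on the plus strand of mouse chromosome 2, from 109514857 to 109567204 in the genome build mm9. All CpGs listed in the deposited files between 5 kb upstream of its first start site and its end were taken, which gave 73 of the 757812 listed CpGs. Of these, 58 had a coverage of 10 or more in all 8 libraries, against 612975 of all listed CpGs. The gene was chosen by its oxBS levels, which had already been seen to be lower in its promoters with shTet3, so that contrast is given here as a description, and nothing is inferred from it. The same holds for the BS libraries, which come from the same DNA.

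DNA methylation was measured in neural precursor cells (NPCs) differentiated from A2lox.cre mouse ES cells, a male line on a 129P2/OlaHsd background. The cells carried a doxycycline-inducible shRNA, directed at *Tet3* (shTet3) or at no target (shScr, the control), and all of them received 2 µg/ml doxycycline for 5 days. Each shRNA had 2 replicates, and the DNA of each replicate was split between a BS library (C stands for 5mC or 5hmC) and an oxBS library (C stands for 5mC only). Nothing in the labels says that replicates came from separate clones or cultures, so the spread between them may be technical, and a single knockdown sequence stands for *Tet3* loss. The identity of the cells and the loss of *Tet3* mRNA cannot be checked in these data, which hold DNA methylation only.

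BDNF is a secreted neurotrophin that acts through the receptor TrkB and supports the survival, growth and synaptic plasticity of neurons. The gene is known for its alternative promoters: each untranslated 5′ exon is spliced to the same last exon, which holds the whole coding sequence of the main protein, so that different promoters make the same protein in response to different signals. Methylation of cytosine in CpGs near a promoter is commonly linked to low activity, and the TET enzymes oxidise 5mC to 5hmC as a step towards its removal.

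The sequences below show the places where most *Bdnf* CpGs of intermediate level lie, and hold all CpGs described below as called lower with shTet3 except position 109517615. They are read from the mm9 genome on the plus strand, 5′ to 3′, and capitals mark the CpGs listed in the files. The first lies upstream of start site 1, at chr2:109514445-109514540.
promoter 1: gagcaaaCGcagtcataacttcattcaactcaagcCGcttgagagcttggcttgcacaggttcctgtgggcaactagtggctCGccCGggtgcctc
The next is in the first exon made from start site 2, at chr2:109516176-109516205.
promoter 2 exon: tgtgtgatccCGgagagcagagtccattca
Upstream of start site 5, at chr2:109533125-109533204, 5 CpGs of a single MspI fragment all had lower levels with shTet3.
promoter 5: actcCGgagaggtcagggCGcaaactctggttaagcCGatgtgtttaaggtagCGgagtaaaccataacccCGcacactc
At start site 6, the end of the first exon is at chr2:109534764-109534793.
promoter 6 exon: gactttcatcCGggagtaggttgggtgttt
The intron after it is at chr2:109534961-109535042.
promoter 6 intron: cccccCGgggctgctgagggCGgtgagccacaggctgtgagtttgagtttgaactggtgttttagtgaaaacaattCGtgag
Far downstream, the middle of the long intron was represented at chr2:109548180-109548219.
mid-gene intron: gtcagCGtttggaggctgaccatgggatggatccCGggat
The last 3 listed CpGs are in the intron before the coding exon, at chr2:109562945-109563012.
last intron: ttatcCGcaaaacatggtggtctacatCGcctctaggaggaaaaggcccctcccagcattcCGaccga

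GENCODE vM1 gives *Bdnf* 10 transcripts, which share the last exon, and 7 start sites. The last 2 start sites are 2 bases apart and were taken as a single promoter, so that 6 promoters (−1 kb to +0.5 kb) were considered and numbered here in order along the gene. These numbers are not the published exon numbers. Listed CpGs numbered 4 in promoter 1, 14 in promoter 2, 21 in promoter 3, 28 in promoter 5 and 28 in promoter 6, with CpGs in overlapping windows counted for each of them. Promoter 4, with its start site at 109532593, had 0 listed CpGs although its window holds 32 CpGs and 4 MspI sites (CCGG). It makes the exon usually called IV, which is best known for its induction by neuronal activity, so the levels below do not speak to it. RefSeq promoter windows (build GRCm38.p6) were located in mm9 by exact sequence match, and all 7 windows matched once. RefSeq start sites more than 500 bases from any GENCODE vM1 start site lie at 109533184, inside the promoter 5 sequence above, at 109549540, with 0 listed CpGs in its promoter, and at 109563078, whose promoter holds the 3 CpGs of the last intron. Of the 73 listed CpGs, 46 were in introns, 23 in untranslated first exons, 4 upstream of the gene and 0 in the last exon. They fell into 8 stretches separated by more than 300 bases and into 21 MspI fragments, within which CpGs share reads and are not independent.

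A pair of short sequence motifs was searched on both strands in the 300 bases around each of the 6 start sites. TGACG, the core of the cAMP response element bound by CREB, was found only before start site 4, at −35 bases, and 23.4% of 45975 promoter windows of the same length hold it. The E-box CACGTG, bound by USF proteins, was found only at start site 2, at +19 bases, against 7.67% of all windows. No listed CpG lay in a match.

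Total calls per library ranged from 42516767 to 61865967, and between 3791 and 4593 of them fell in *Bdnf*. The median coverage of its CpGs was between 41 and 64. At CpGs with a coverage of 10 or more, 95% Wilson intervals of a single library's level were between 1.93 and 51.9 percentage points wide, with a median of 14.4. These intervals cover counting error only, since reads copied by PCR are not independent molecules.

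In shScr, *Bdnf* held regions of low and of intermediate methylation. For 60 CpGs with enough oxBS calls, 5mC averaged 15.6% in shScr replicate 1 and 17.7% in replicate 2, against 27.2% and 32.3% over all listed CpGs. At 37 of the 60 CpGs the shScr level was under 10%, or 61.7% of them, against 54.1% of all CpGs. The first exon and following intron at start site 5 (stretch 5, 14 CpGs) had the lowest mean, at 3.78% and 4.35%. The 12 CpGs of the exon at start site 2 (stretch 2) averaged 7.95% and 8.29%. A CpG chosen after its level was seen, position 109516186, lay at the 5′ edge of that stretch and inside an MspI site. In oxBS it had 43.5% and 65.6% with shScr against 44.0% and 40.0% with shTet3, at coverages from 23 to 35. Its BS levels were 26.9% and 49.2% with shScr against 33.3% and 46.0% with shTet3, so the groups overlapped in both kinds of library. In the 10 CpGs upstream of start site 5 (stretch 4), 5mC was higher, at 31.2% and 30.0%. Levels were highest, and least alike between replicates, in the 5 intronic CpGs outside the GENCODE promoters, with 42.6% and 74.9%. These patterns along the gene are plotted by library and CpG.

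**Figure D1:**
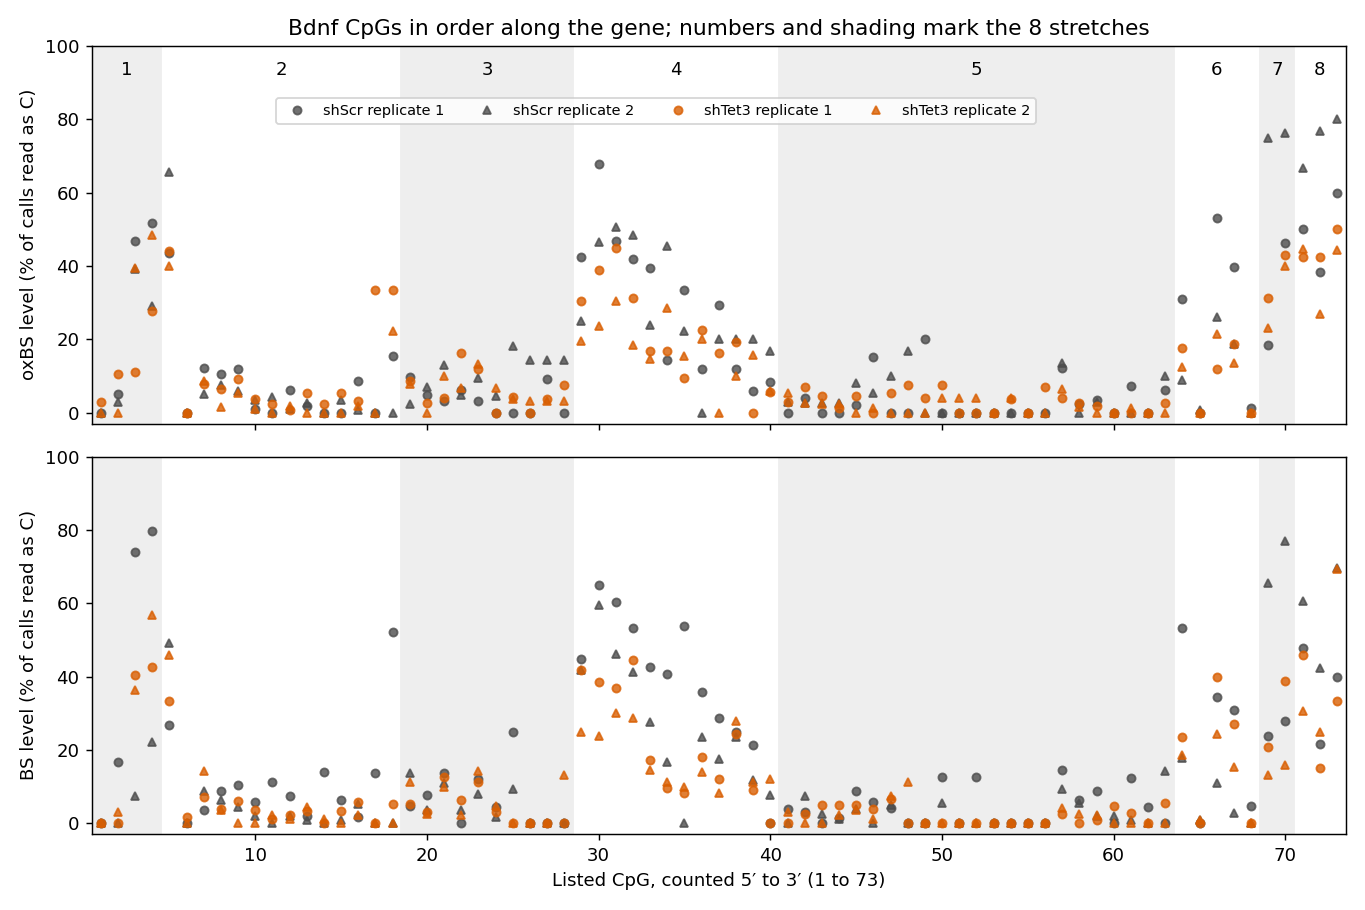
Level at each of the 73 listed *Bdnf* CpGs, in order along the gene (x axis, CpG number), in the oxBS (top) and BS (bottom) libraries, as % of calls read as C. Grey symbols are shScr and orange symbols shTet3, circles replicate 1 and triangles replicate 2, and shading marks alternate stretches. Stretches 2, 3 and 5 lie mostly under 20%, whereas stretches 4, 7 and 8 are intermediate.

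With shTet3, mean 5mC over the same 60 CpGs was 12.2% and 10.6%, below both shScr replicates. The shTet3 mean was lower than the shScr mean by 5.26 percentage points (pooled SD between replicates 1.30, n = 2 per group). Over all listed CpGs, the replicates had 22.7% and 22.9% with shTet3, and the difference was −6.94. In the BS libraries, the *Bdnf* mean was 17.8% and 14.4% with shScr against 12.1% and 11.0% with shTet3, a difference of −4.48 (pooled SD 1.79, n = 2 per group), and −6.77 over all listed CpGs. The shTet3 mean was lower at 41 CpGs, higher at 16 and equal at 3 in the oxBS libraries. In *Bdnf* 68.3% were lower, against 53.9% of all listed CpGs tested. Of those 662455 CpGs, 356840 were lower, 96144 higher and 209471 equal. Equal values were thus more common over all CpGs than in *Bdnf*, so these percentages do not compare lower with higher CpGs. The median difference in *Bdnf* was −2.28 percentage points, against −0.62 for all CpGs, and single CpGs ranged from −26.0 to 15.4.

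Hypo-DMPs, which needed *q* below 0.01 and pooled levels more than 10 percentage points apart, numbered 6 of the 60 *Bdnf* CpGs (10%) in the oxBS libraries, against 13.9% of all CpGs tested. In the BS libraries there were 5 of 60, against 13.8%. All CpGs include those outside promoters, whereas 55 of the 60 *Bdnf* CpGs in oxBS lay in its promoters, with 5 of the hypo-DMPs. Of the promoter CpGs of protein-coding genes, 1.85% were hypo-DMPs in oxBS. Hyper-DMPs numbered 0 in both kinds of library, against 0.0814% and 0.0621% of all CpGs. At CpGs with more than 10% in shScr, 6 of 23 were hypo-DMPs in oxBS, against 30.4% of such CpGs in all, and 5 of 24 in BS, against 31%. Both shTet3 libraries lay below both shScr libraries at 16 of 60 CpGs in oxBS, against 26.3% of all CpGs, and at 15 in BS, against 26.1%. They lay above both at 4 CpGs in oxBS, against 2.04%, and at 3 in BS, against 1.96%. The number of hypo-DMPs rested on single libraries. In oxBS it was 3 of 60 without shScr replicate 1 (against 16.7% of all CpGs), 7 of 70 without shScr replicate 2 (5.79%), 3 of 61 without shTet3 replicate 1 (8.72%) and 2 of 60 without shTet3 replicate 2 (9.93%). In BS it was 3 of 68 without shScr replicate 1 (against 17.0%), 11 of 62 without shScr replicate 2 (4.94%), 3 of 60 without shTet3 replicate 1 (8.46%) and 1 of 61 without shTet3 replicate 2 (9.20%). The order of *Bdnf* and all CpGs thus turned with shScr replicate 2 left out. With an F test that corrects for the spread between replicates, 0 *Bdnf* CpGs passed in either kind of library. At an unadjusted p under 0.05 by this test there were 0. Over all CpGs, 1.96% in oxBS and 1.86% in BS had such a p and were lower with shTet3. That test, with 2 residual degrees of freedom, called 0% of all CpGs.

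Among the stretches, both shTet3 libraries lay below both shScr libraries in both kinds of library in stretches 2, 4 and 5. In stretch 2 the difference was −1.84 in oxBS and −1.27 in BS, and in stretch 5 it was −1.93 and −1.87. Stretch 4, upstream of start site 5, had the largest of these differences. Stretch 4 had 31.2% and 30.0% with shScr against 23.7% and 18.1% with shTet3 in oxBS, a difference of −9.69 (pooled SD 2.85). In BS it had 37.7% and 30.0% with shScr against 24.2% and 19.5% with shTet3, a difference of −12.0 (pooled SD 4.49). In the upstream promoters (promoters 1 to 3, merged) the oxBS difference was −1.93 over 26 CpGs. It was −5.71 over the 29 CpGs of the downstream promoters (4 to 6, merged). In BS, the upstream promoters overlapped between groups, with 12.9% and 6.16% in shScr against 7.57% and 8.79% in shTet3. The 5 intronic CpGs outside the GENCODE promoters, 3 of them in a RefSeq promoter, had 42.6% and 74.9% with shScr against 41.7% and 35.9% with shTet3 in oxBS, so that shScr replicate 2 alone stood far above the rest.

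**Figure D2:**
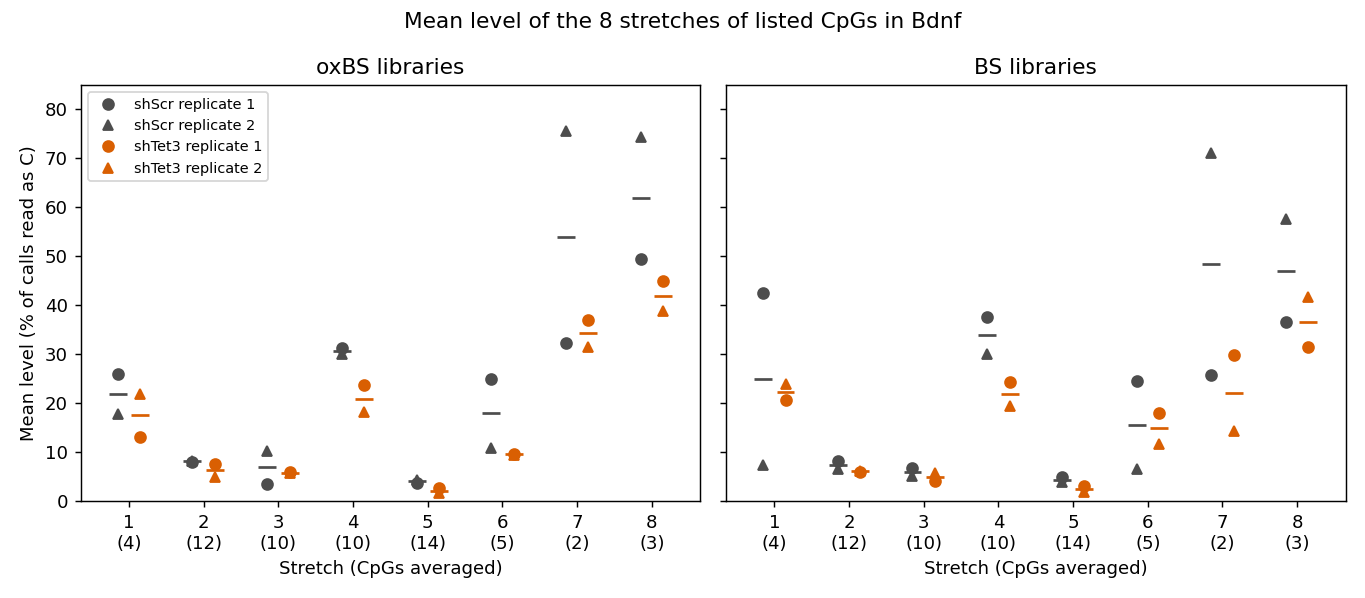
Mean level of each stretch (x axis, with the number of CpGs averaged in brackets) in the 4 oxBS libraries (left) and the 4 BS libraries (right), as % of calls read as C. Symbols are single libraries and short lines are group means. Stretch 4 is separated between shScr and shTet3 in both panels, whereas stretches 7 and 8 show shScr replicate 2 far above the other libraries.

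The lower levels in stretch 4 came mainly from the MspI fragment whose first 5 CpGs are printed above as promoter 5. This fragment runs from 109533129 to 109533277 (149 bases) in the intron after the exon of promoter 4. Averaged over its 5 CpGs, 5mC was 47.8% and 38.9% with shScr against 32.4% and 21.4% with shTet3. The BS libraries had 53.2% and 43.3% with shScr against 35.8% and 24.4% with shTet3. All 5 CpGs had a lower mean with shTet3 in both kinds of library, and since they share reads they amount to a single observation per library. At its second CpG, 109533143, the oxBS level was 67.9% and 46.6% with shScr against 38.8% and 23.8% with shTet3, with coverages between 67 and 88. In the BS libraries the same CpG had 64.9% and 59.5% with shScr against 38.5% and 23.8% with shTet3. This CpG and 109533196, the last of the fragment, were the 2 hypo-DMPs found in both kinds of library. Position 109533196 had 39.5% and 23.9% with shScr against 16.7% and 14.6% with shTet3 in oxBS. Its BS levels were 42.7% and 27.5% with shScr against 17.1% and 14.5% with shTet3. Position 109533178 was a hypo-DMP in oxBS only, with 42.0% and 48.3% with shScr against 31.3% and 18.5% with shTet3, while in BS shTet3 replicate 1 (44.6%) lay above shScr replicate 2 (41.2%). Position 109533161 was a hypo-DMP in BS only, with 60.4% and 46.2% with shScr against 36.9% and 30.2% with shTet3.

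**Figure D3:**
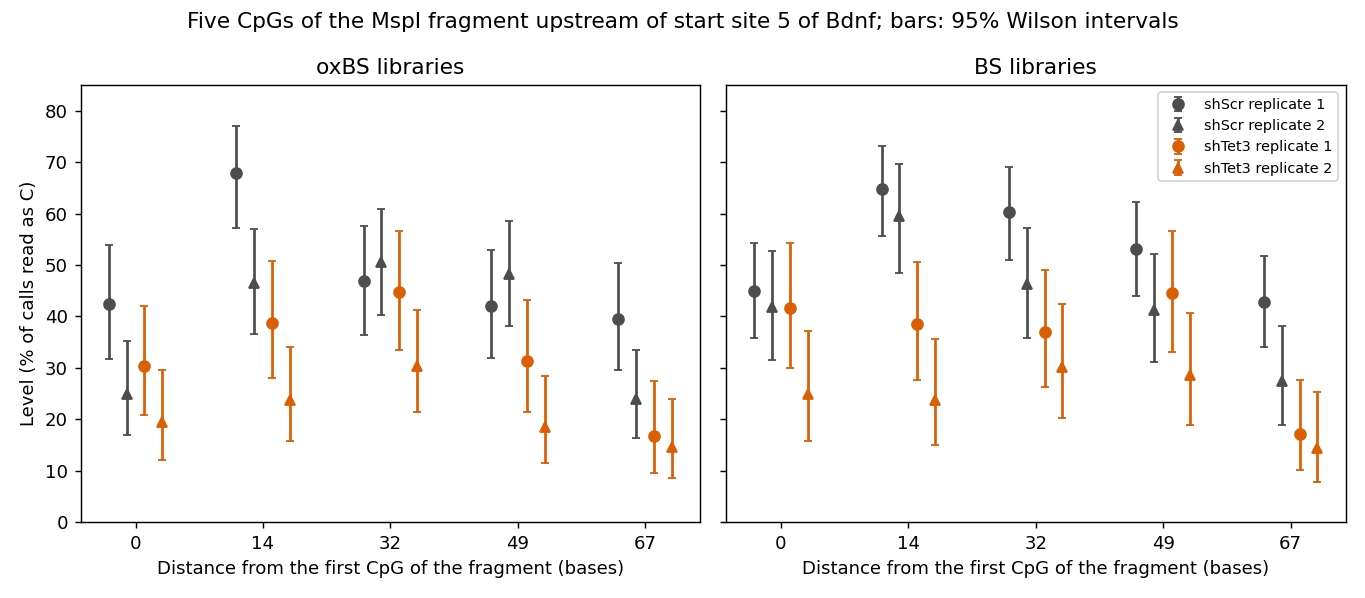
Level (% of calls read as C) at the 5 CpGs of the fragment upstream of start site 5, by distance in bases from the fragment's first CpG, in oxBS (left) and BS (right) libraries. Bars are 95% Wilson intervals of each library, grey is shScr and orange shTet3. At the second CpG (14 bases) both shTet3 libraries lie below both shScr libraries in each panel.

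The other hypo-DMPs were less alike between replicates or kinds of library. Upstream of start site 1, position 109514527 was a hypo-DMP in oxBS, with 46.8% and 39.1% with shScr against 10.9% and 39.4% with shTet3, so that a single shTet3 library was low. Its BS levels were 74.1% and 7.41% in shScr, replicates further apart than the group means. In the intron of promoter 6, position 109534966 had 52.9% and 26.2% with shScr against 11.9% and 21.6% with shTet3 in oxBS, and both shTet3 libraries were the lower. In BS the order was turned, with 34.4% and 10.9% with shScr against 40.0% and 24.3% with shTet3. In the last intron, position 109562972 had 38.5% and 76.7% with shScr against 42.3% and 27.0% with shTet3 in oxBS, at coverages from 13 to 37, and the groups overlapped. The remaining hypo-DMPs of the BS libraries were 109517615 in the intron of promoter 3, with 25.0% and 9.38% in shScr and 0% in both shTet3 libraries, and 109534774 in the first exon of promoter 6. At a coverage of 21 in replicate 2, a count of 0 allows a level of up to 14.3%. Position 109534774 had 53.3% and 17.7% with shScr against 23.4% and 18.5% with shTet3, so that shScr replicate 1 alone was high.

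Some CpGs lay close to the thresholds. In oxBS, position 109534981, 15 bases from the hypo-DMP 109534966, had 39.8% and 18.6% with shScr against 18.8% and 13.5% with shTet3 and missed the *q* threshold. In BS, position 109548185 in the mid-gene intron was closer to it, with 23.8% and 65.4% in shScr, while shTet3 had 20.8% and 13.0%. Position 109534010, in the exon at start site 5, had 15.2% and 5.41% with shScr against 0% and 1.23% with shTet3, a pooled difference of −8.57 that missed the size threshold. The hypo-DMP closest to the *q* threshold was 109562972. The coverage minimum also cut close: 109517615 was kept with 10 calls in its thinnest oxBS library, and 109516384 and 109533305 were left out with 9.

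The shScr replicates differed from each other at several *Bdnf* CpGs. In BS, replicate 2 was lower than replicate 1 at 7 of 61 CpGs by the same test and thresholds, against 0.74% of all CpGs, and higher at 0, against 5.57%. In oxBS, replicate 2 was lower at 1 CpG and higher at 1, against 0.764% and 6.06%. Between the shTet3 replicates, 0 of 71 CpGs differed in oxBS, against 0.252% of all CpGs lower in replicate 2 and 0.47% higher. In BS 0 of 70 differed, against 0.163% lower and 0.346% higher. Upstream of start site 1, the 4 CpGs averaged 42.6% and 7.41% in the shScr BS libraries and 25.9% and 17.7% in oxBS. With shTet3 these CpGs had 20.7% and 24.0% in BS. The gap was wider in the 2 CpGs of the mid-gene intron (stretch 7), where replicate 2 was the higher, with 25.8% and 71.2% in BS and 32.3% and 75.6% in oxBS.

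Next, the BS library of each DNA was compared with its oxBS library, since an excess in BS estimates 5hmC. This contrast was not itself used to choose the gene. It contains the oxBS levels that were, so it is not independent of that choice. In shScr, over 59 CpGs, the BS mean was 18.3% and 14.5% and the oxBS mean 15.7% and 17.2%, so that BS minus oxBS was 2.65 in replicate 1 and −2.75 in replicate 2. The mean difference was −0.050 percentage points (two-sided exact permutation p = 1, where 0.33 is the smallest p that 2 against 2 libraries can give). This permutation, also used for shTet3, took the libraries as unpaired, although those of each DNA form pairs. In shTet3, over 70 CpGs, BS minus oxBS was −0.32 and 0.55, with a mean of 0.11 (exact permutation p = 1). The logistic test called 0 CpGs with BS above oxBS and 0 below in shScr, against 0.33% and 0.17% of all CpGs, and 0 in both directions in shTet3, against 0.0239% and 0.0141%. At an unadjusted p under 0.05 there were 7 CpGs above and 7 below in shScr, against 7.25% and 5.39% of all CpGs. In shTet3 there were 4 above and 5 below, against 5.13% and 3.88%. By the F test 0 CpGs had an unadjusted p under 0.05 in either. Over all CpGs, 0.0329% in shScr and 0.0159% in shTet3 had such a p with BS above oxBS. In the fit with a replicate block, where the 2 libraries of each DNA are paired, 1 CpG was called with BS above oxBS in shScr, against 0.322% of all CpGs. It was 109534774, named after its value was seen, with 53.3% and 17.7% in BS and 31.0% and 8.82% in oxBS. Without the shScr BS replicate 2, 4 of 61 CpGs were called, against 0.535%, and without the shScr oxBS replicate 1, 2 of 59, against 0.163%. Both BS libraries of shScr lay above both oxBS libraries at 3 CpGs and below at 2, against 6.54% and 5.16% of all CpGs. With shTet3 they lay above at 4 and below at 9, against 8.76% and 7.19%.

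Stretch by stretch, BS minus oxBS had the same sign in all 4 pairs in stretch 4, with 8.79 and 4.26 with shScr against 1.42 and 2.85 with shTet3, and in stretch 7, with negative values in all pairs. A negative value cannot come from 5hmC. In stretch 4 the mean BS minus oxBS was 6.52 ± 3.20 over 9 CpGs in shScr and 2.13 ± 1.01 over 11 CpGs in shTet3 (SD over n = 2 pairs). The CpGs differ, so these means do not compare the shRNAs at the same CpGs. An exact sign-flip permutation test over the pairs, added after seeing the data, gave p = 0.5 in each, the smallest that 2 pairs allow. The pairs are plotted for each stretch.

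**Figure D4:**
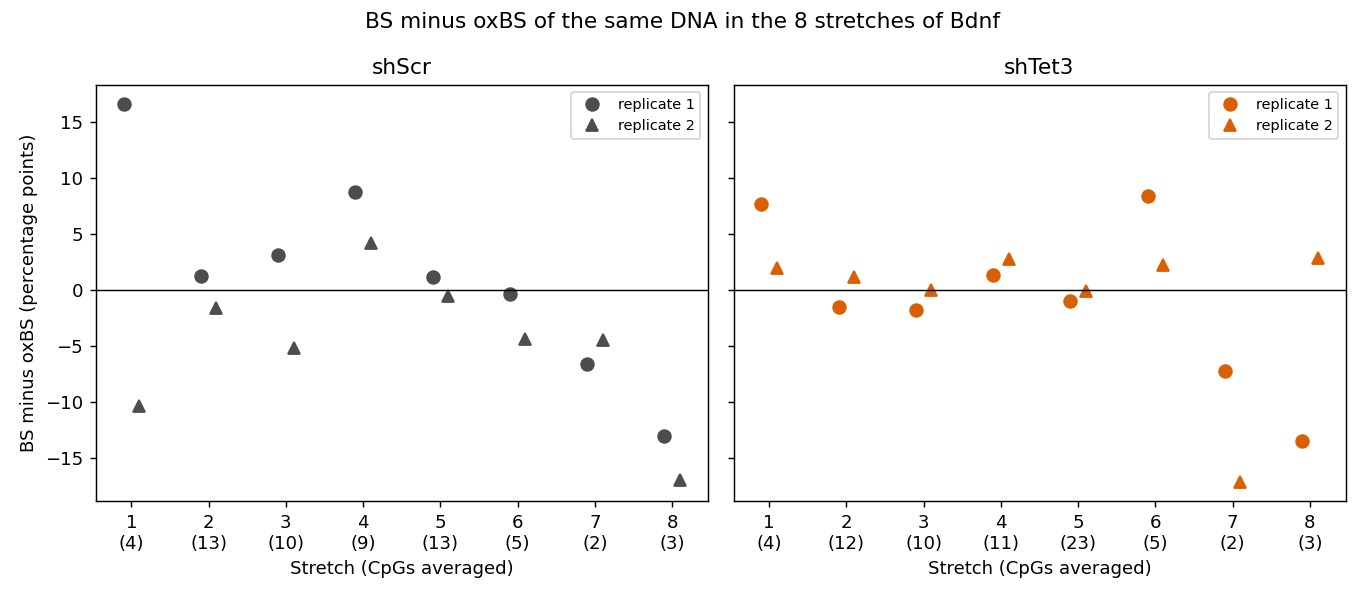
BS minus oxBS (percentage points) in each stretch (x axis, with the number of CpGs averaged in brackets) for the DNA of each replicate in shScr (left) and shTet3 (right). The line marks 0. In stretch 1 the shScr replicates are 16.7 and −10.3, and in stretch 4 all values are above 0.

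CpGs inside an MspI site, where reads begin, had higher levels than the others in all libraries. In oxBS replicate 1 of shScr, 13 such CpGs of *Bdnf* averaged 23.7% and the 45 others 13.7%. Over all listed CpGs the values were 42.4% and 21.5%.

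Other genes of the pathway were then compared by the CpGs of their promoters in oxBS. Among 16 genes of neurotrophins, their receptors, processing enzymes and signalling adaptors, 15 had CpGs to test. Of these, 3 had a hypo-DMP, or 20%, against 19.7% of all protein-coding genes. Hypo-DMPs made up 5 of their 411 promoter CpGs, against 1.85% of all promoter CpGs, and hyper-DMPs numbered 0. *Sorcs2*, a sortilin-family receptor, had 2 among 29 CpGs, with 17.8% and 12.8% with shScr against 9.86% and 9.70% with shTet3. *Sorcs3*, of the same family, had 2 among 46 CpGs, with 6.97% and 11.9% with shScr against 7.74% and 10.3% with shTet3, and its groups overlapped. In *Ntrk2*, the gene for TrkB, 0 of 18 CpGs were hypo-DMPs. Of 13 genes of transcriptional regulators known to act on *Bdnf*, 11 had CpGs to test and 2 had a hypo-DMP, or 18.2%. Both shares were near those of all genes: 19.7% of protein-coding genes had one, and 9 of the 478 regulator CpGs (1.88%) were hypo-DMPs, against 1.85%. *Npas4*, an activity-induced transcription factor, had 8 hypo-DMPs among 15 CpGs, with 57.3% and 48.9% with shScr against 38.4% and 38.8% with shTet3. *Rest*, a repressor of neuronal genes, had 1 among 75 CpGs, with 3.84% and 4.24% with shScr against 3.19% and 3.16% with shTet3. In BS, hypo-DMPs numbered 0 of 29 CpGs in *Sorcs2*, 1 of 35 in *Sorcs3*, 2 of 14 in *Npas4* and 0 of 70 in *Rest*. Over the neurotrophin list they were 8 of 415 in BS, and over the regulators 2 of 478. All protein-coding genes had 6099 of 353859 promoter CpGs in BS. The promoters of *Bdnf*, a gene chosen for its lower levels, had 5 hypo-DMPs among 55 CpGs, against 1.85% of all promoter CpGs. That share is over promoters of every level and is not matched to *Bdnf*.

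The 5 genes whose mean promoter level was most like that of *Bdnf* over the 8 libraries, among 6938 genes with at least 20 covered promoter CpGs, were *Sykb*, *Pde10a*, *Gfra1*, *Odz4* and *Crhr2*. Their mean absolute difference from *Bdnf* ranged from 0.82 to 1.25 percentage points. In oxBS, hypo-DMPs numbered 0 of 31 CpGs in *Sykb*, 3 of 35 in *Pde10a* and 1 of 23 in *Gfra1*. There were 2 of 60 in *Odz4* and 1 of 27 in *Crhr2*, against 5 of 55 in *Bdnf*. The match used the shTet3 levels too, so these counts are not independent of it. *Bdnf* had 13.4% and 12.1% with shScr against 9.55% and 8.10% with shTet3 in oxBS, and *Sykb* had 11.6% and 11.2% with shScr against 9.49% and 8.92% with shTet3.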

How the data were processed

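oxRRBS libraries of shScr and shTet3 NPCs were analysed (2 replicates of BS and of oxBS each), grouped by their labels. The authors trimmed reads with Trim Galore (RRBS mode) and aligned them to mm9 with Bismark and bowtie2, and versions are not given in the sources used here. The authors deposited an unnormalised count of calls (coverage) for each CpG in every library, with the percentages of C and T among them (percent units). Percent times coverage gave whole numbers of methylated calls within 1e-06. All files held the same CpGs with a coverage of at least 5, and 100% of positions were the C of a CG in mm9.

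The members and gene lists were chosen with earlier results of these data known. A CpG entered a comparison if all 4 of its libraries had 10 or more calls. Levels were unweighted means over CpGs. Each CpG of the whole table was tested in a logistic model of its calls (likelihood ratio test, with Benjamini-Hochberg *q* values over all CpGs, Python 3.11.15, numpy 2.4.6, scipy 1.17.1) and called where *q* was below 0.01 and pooled levels differed by over 10 percentage points. The paper's methods name methylKit, and its test was computed directly. The tests were tried on simulated binomial counts that had no spread between replicates beyond counting error. There the likelihood ratio, Fisher and block tests recovered changes at about the rate their power allows, whereas the F test did not recover any. The simulation does not show how the tests behave where replicates differ, as the shScr replicates did. Replicate numbers pair BS and oxBS libraries, which are of the same DNA (correlation of replicate differences 0.508 in shScr and 0.246 in shTet3). For shScr and shTet3 they are numbers only (−0.036 in oxBS and −0.028 in BS).

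CpGs described singly were those called, those nearest a threshold and those in a searched motif, with position 109516186 added after its level was seen. From the gene lists, genes with a called promoter CpG were named, except an item that is not reported here, and *Ntrk2* was added afterwards. A rule for genes with 3 or more separate promoters was not applied, since the *Bdnf* windows merge into 2 groups. Alternatives were coverage minimums of 5 and 20, leaving out the CpGs of extreme coverage (over the 99.9th percentile), levels weighted by reads, the F test, Fisher's exact test, the replicate block, a demand that groups not overlap, wider promoters (−2 kb to +1 kb), each start site as its own promoter and leaving out each replicate.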

Additional observations from a re-analysis of the deposited data

Results flagged for a closer look

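At position 109534966, in the intron of promoter 6, BS minus oxBS was negative in both shScr replicates (−18.5 and −15.3 percentage points) and positive in both shTet3 replicates (28.1 and 2.72), a difference of 32.3 between the shRNAs. Its stretch (stretch 6) showed the same opposition, with −0.34 and −4.37 in shScr against 8.45 and 2.27 in shTet3, a difference of 7.71. The 2 results share reads, and the difference between the shRNAs was not tested. Single CpGs were screened for such opposite signs only if called in oxBS or BS. Position 109534966 entered as a hypo-DMP in oxBS, and the same oxBS levels are part of its BS minus oxBS. Its values are therefore not independent of that choice.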

How the results depend on the processing

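Of the alternatives, 81 values stayed within the spread between replicates or within 1.5 times the reported count, and 22 moved. Some of the 81 had no room to move, so their number is no measure of robustness. Leaving out extreme coverage removed no *Bdnf* CpG, the wider promoters held the same tested CpGs, and the replicate block leaves mean differences unchanged by arithmetic. The shTet3 minus shScr differences kept their sign in all alternatives. The mean BS minus oxBS changed sign in 5 of 9 alternatives in shScr and in 3 of 9 in shTet3. With a coverage minimum of 20 the oxBS difference over *Bdnf* was −3.95, with a minimum of 5 it was −0.48 in the upstream promoters, and the read-weighted difference of the downstream promoters was −9.02. Taken singly, promoter 1 had −4.34, promoter 3 had −1.05 and promoter 6 had −3.62. The F test called 0 hypo-DMPs in oxBS and in BS, where with 2 residual degrees of freedom the lowest p over all CpGs was 0.0068. Fisher's test called 3 of 60 CpGs in BS, against 12.7% of all CpGs. The replicate block called 6 hypo-DMPs in oxBS, against 14.5% of all CpGs, and 5 in BS, against 14.3%. Between shScr and shTet3 the replicate numbers are numbers only, so this block is no check on those counts. The mean differences (−5.26 and −4.48) could not change under the block, by arithmetic. Between BS and oxBS, the block called 1 CpG with BS above oxBS in shScr, against 0.322% of all CpGs. The cause of the other changes was not tested.

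Leaving out each replicate gave a range from −6.30 to −3.97 for the oxBS difference, −6.77 to −2.45 for BS, −2.65 to −1.21 in the upstream and −6.92 to −4.42 in the downstream promoters. Hypo-DMPs ranged from 2 to 7 in oxBS and from 1 to 11 in BS, with the shares of all CpGs given above. BS minus oxBS ranged from −1.96 to 2.05 in shScr and from −0.70 to 0.93 in shTet3. CpGs with BS above oxBS ranged from 0 to 4 in shScr and from 0 to 0 in shTet3.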
